A study of Drosophila melanogaster with 15 samples.

Results

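The comparison described here set whole third-instar larvae of Drosophila melanogaster that carried the Relish allele E20 against larvae that carried the Dif allele 1. Its members were chosen by genotype alone, as all arrays of these 2 stocks, which gave 3 Relish mutant and 3 Dif mutant arrays out of 15 in the series. The other arrays, used to estimate the spread and to place levels, were 3 of larvae with the dorsal allele 1, 3 of wild type larvae injected with Escherichia coli and 3 of wild type larvae injected with phosphate buffered saline (PBS). Larvae received about 0.1 microliter each, RNA of 20 pooled larvae was extracted 2 h later, and each array gave 1 scaled hybridisation signal per probe set. The treatment text says that every mutant pool received E. coli, but the titles of all 9 mutant arrays hold the letters ctr, found otherwise in titles of PBS arrays and absent from titles of wild type larvae given E. coli. Mutants injected with PBS were not analysed here, and the genotype, the genetic background of each stock and its response to injection cannot be told apart in this comparison. Each mutation was examined in 1 stock, and the labels do not say whether pools of 1 group were separate cultures.

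Relish and Dif are both transcription factors of the NF-kappaB family. Relish acts at the end of the Imd pathway, which is set off by peptidoglycan of the kind that Gram-negative bacteria carry, whereas Dif acts at the end of the Toll pathway, which answers mainly to fungi and many Gram-positive bacteria. In the larval fat body, both pathways switch on secreted antimicrobial peptides: diptericins and attacins are textbook Relish targets, and drosomycin and the short Bomanin peptides are textbook Toll targets.

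The mutated genes were examined first. Rel (probe set 151822_at) gave signals of 18.9, 11.4 and 27.4 in Relish larvae, against 1091.5, 1191.2 and 1272.7 in Dif larvae. The groups were far apart, and the Relish arrays lay below the constant of 80 that was added to every signal before taking log2, so the fitted log2 difference of -3.67 (SE 0.34, adjusted p = 1.13e-05) is no measure of its full size. Dif (143643_at) gave 34.6, 28.1 and 258.3 in Relish larvae, against 210.0, 213.8 and 204.3 in Dif larvae. Signals of the Dif transcript overlapped between the stocks, so this probe set did not check the Dif label. The dl gene, which encodes the third NF-kappaB factor, lies beside Dif on chromosome arm 2L, and its log2 difference was -0.63 (SE 0.44, adjusted p = 0.603). Of the 6 annotated neighbours of each mutated gene that had a tested probe set, none passed the test. The largest difference among them was that of Nmdmc, next to Rel on arm 3R, a mitochondrial enzyme of folate metabolism. It read 45.8, 127.1 and 271.7 in Relish larvae and 788.8, 408.3 and 610.1 in Dif larvae, without overlap (log2 difference -1.67, SE 0.47, adjusted p = 0.0955).

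Across 11427 tested probe sets, 131 differed between the Relish and the Dif mutant at an adjusted p under 0.05 (1.15%). Of these, 75 were higher in Relish larvae (0.656%) and 56 were lower (0.49%). The median log2 difference was 1.66 among the higher and -1.65 among the lower, while over all tested probe sets it was -0.034. At an unadjusted p under 0.05 there were 1476 probe sets (12.9%), and the arrays of the stocks did not overlap at 1888 (16.5%). Among the called probe sets 130 did not overlap, with Amyrel the exception. There were 115 named genes among the calls, with 5 probe sets that carry several gene symbols and 10 that carry none. The calls rest on 3 arrays a group: 42 of the 131 were called with each of the 6 arrays left out in turn, 27 of them higher and 15 lower in Relish larvae, and the total fell to 61 without Relish replicate 1, 67 without Relish replicate 2 and 72 without Dif replicate 2.

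**Figure D1:**
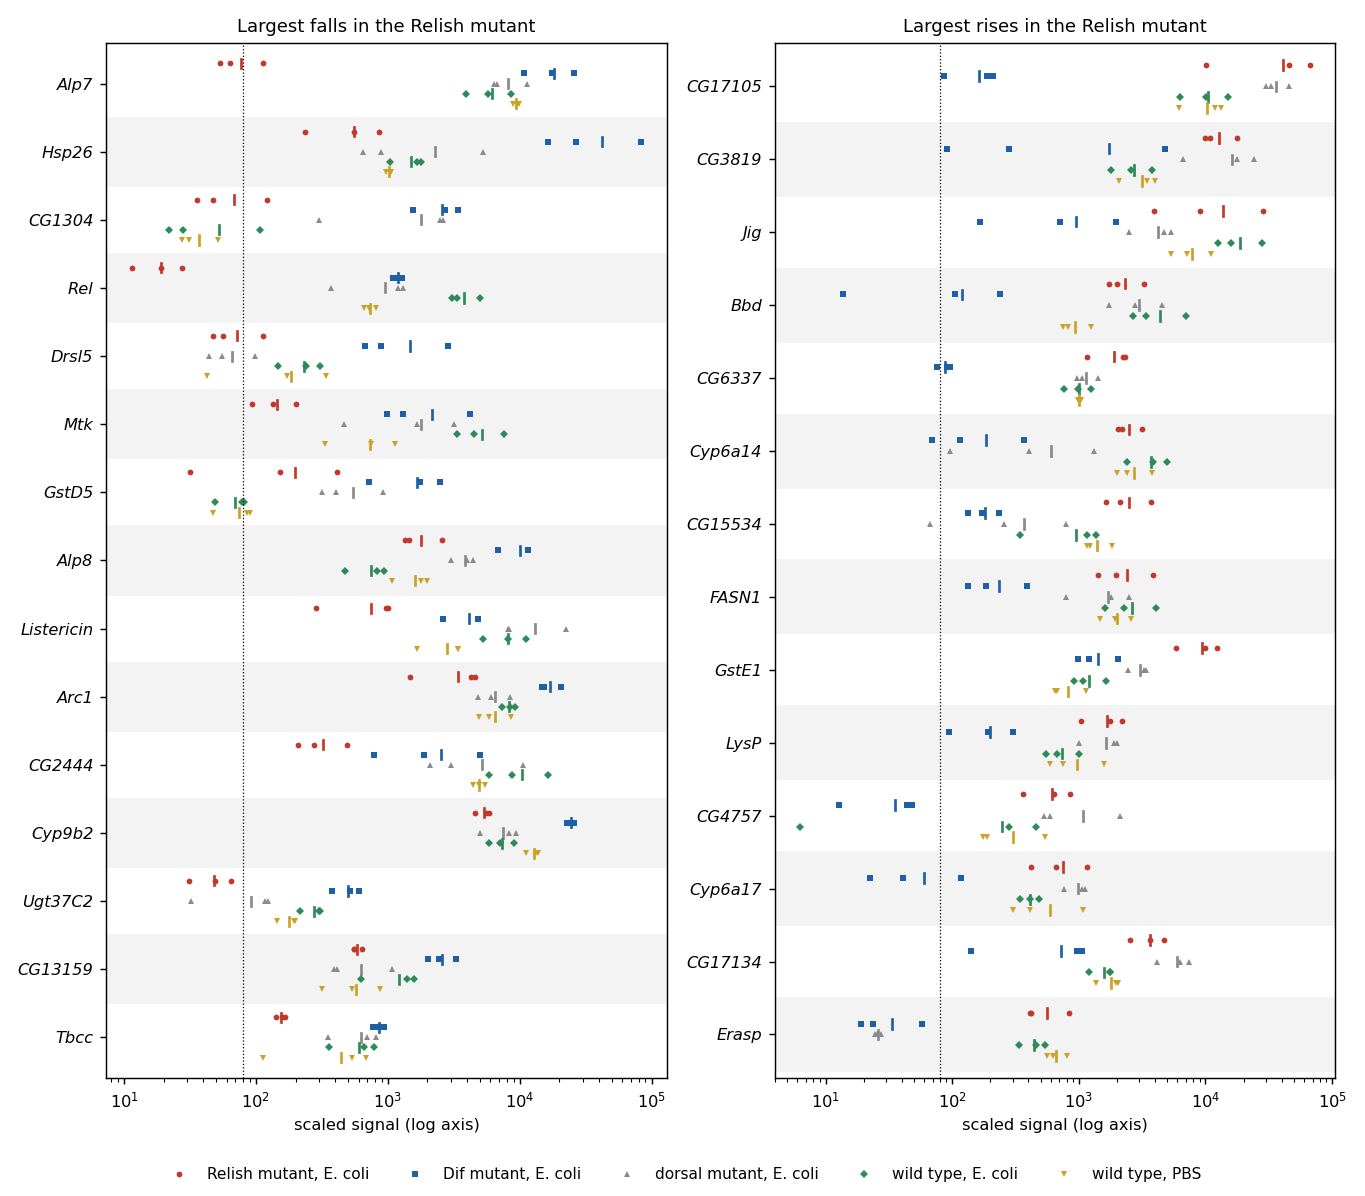
Scaled signal (log axis) of 14 of the 15 genes with the largest increases and of the 15 with the largest decreases in the Relish relative to the Dif mutant. Each point is 1 array, the short bars are arithmetic means of 3 arrays, and the dotted line marks the added constant of 80. CG17105 and Alp7 have the widest gaps between the 2 stocks. Genes were chosen among called probe sets whose Relish and Dif arrays do not overlap, so the lack of overlap follows from the choice.

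The largest decrease in Relish larvae was that of Alp7 (147664_at, arm 2R), which encodes an alkaline phosphatase. Alp7 read 53.4, 113.4 and 64.1 in Relish larvae, against 25981.6, 17618.2 and 10839.9 in Dif larvae. Its signal was near the constant of 80 on every Relish array and bright on every Dif array (log2 difference -6.79, SE 0.32, adjusted p = 6.31e-10). Alp7 averaged 77.0 ± 32.0 in Relish larvae and 6130 ± 2383 in wild type larvae with E. coli (SD, n = 3 each), so the Relish stock stood apart from both others. Its relative Alp8 (147666_at) read 1346.2, 2584.9 and 1457.0 in Relish larvae and 11495.4, 11627.6 and 6809.7 in Dif larvae. For Alp8 the wild type lay with the Relish stock, at 745.6 ± 245.0 with E. coli. The log2 difference of Alp8 was -2.44 (SE 0.31, adjusted p = 0.000434), with Relish means 5.56-fold lower than Dif means.

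Other large decreases fell in several families. CG1304, a serine protease, read 35.6, 47.6 and 122.1 in Relish larvae and 1554.8, 3428.4 and 2721.2 in Dif larvae (log2 difference -4.13, SE 0.57, adjusted p = 0.000886), and averaged 52.3 ± 47.3 in wild type with E. coli (SD, n = 3). CG1304 was also bright on dorsal mutant arrays 1 and 2, at 2608.2 and 2480.1, and read 302.1 on the third, so high signals were not confined to the Dif stock. Arc1, whose protein forms virus-like capsids that carry RNA, read 1463.4, 4579.1 and 4261.8 in Relish larvae and 14740.0, 15177.6 and 20653.4 in Dif larvae (log2 difference -2.41, SE 0.34, adjusted p = 0.00106). The wild type E. coli mean of Arc1, 8344 ± 912 (SD, n = 3), lay between those of the mutants. Listericin, an antibacterial peptide, read 1003.3, 283.7 and 961.9 in Relish larvae and 4820.7, 2608.9 and 4862.1 in Dif larvae (log2 difference -2.44, SE 0.45, adjusted p = 0.0111). Relative to wild type with E. coli, Listericin stood at -3.42 in Relish larvae and at -0.98 in Dif larvae on the log2 scale. Relative to wild type with PBS it stood at -1.90 in Relish larvae and at 0.54 in Dif larvae. The values of each pair share the wild type arrays. The tubulin cofactor gene Tbcc (-1.98), CG13159 (-1.99) and CG2444 (-2.40) were also lower. Of the 15 named decreases, 9 were called with each array left out; the call of Tbcc was lost whichever array was left out, with adjusted p between 0.0691 and 0.113, those of CG13159 and CG2444 were each lost with 5 of 6 arrays, and that of Listericin was lost without Relish replicate 2 (adjusted p = 0.0596).

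The largest increase in Relish larvae was that of CG17105 (146179_at, arm 2L), for which the annotation used gives no other name. It read 45428.9, 10029.7 and 66796.6 in Relish larvae, against 189.9, 86.4 and 209.9 in Dif larvae, a 251-fold difference of means (log2 difference 7.06, SE 0.51, adjusted p = 4.38e-07). Its wild type E. coli mean was 10508 ± 4431 (SD, n = 3), so the low group was the Dif stock. The same placing held for Jig, which read 28615.1, 3890.3 and 9018.4 in Relish larvae and 1982.3, 706.0 and 166.6 in Dif larvae, with a wild type E. coli mean of 18891 ± 8153 (SD, n = 3). The log2 difference of Jig was 3.78 (SE 0.66, adjusted p = 0.00648). CG3819 read 10827.6, 17776.2 and 9886.0 in Relish larvae and 4822.1, 279.1 and 90.3 in Dif larvae. Dif replicate 1 stood well above the other two, and the groups still did not overlap (log2 difference 4.22, SE 0.80, adjusted p = 0.0126).

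CG6337 was low on all Dif arrays, at 2240.4, 2305.8 and 1169.2 in Relish larvae against 96.3, 91.7 and 75.6 in Dif larvae (log2 difference 3.51, SE 0.28, adjusted p = 1.16e-06). CG15534, a sphingomyelinase, averaged 2491 ± 1097 in Relish larvae and 180.4 ± 52.1 in Dif larvae (SD, n = 3 each), on the log2 scale 3.24 apart (SE 0.53, adjusted p = 0.00377). The aspartic protease gene CG17134 (2.49), Erasp (2.44) and CG4757 (2.55) were also higher. Erasp has another tested probe set that did not follow, with a log2 difference of -0.22. Of the 15 named increases, 12 were called with each array left out: the call of CG4757 was lost whichever array was left out (adjusted p between 0.074 and 0.172), that of CG3819 without Relish replicate 2, Dif replicate 2 or Dif replicate 3 (0.0633, 0.0658 and 0.0566), and that of CG17134 without Relish replicate 2 (0.0557). The largest unnamed probe sets were 154110_at (1.38) and 143588_at (1.09) among the increases, and 153583_at (-4.42) and 141374_at (-3.23) among the decreases. The call of 143588_at was lost with 5 and that of 141374_at with 4 of the 6 single arrays left out, with adjusted p up to 0.106 and 0.159.

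All 6 antimicrobial peptide genes with a tested probe set, of 14 listed, had lower fitted levels in Relish than in Dif larvae. Their median log2 difference was -0.946, but only Mtk passed the test. Over all 9190 tested genes, 51.9% were below 0, and 1.25% were called on any probe set. Mtk, which encodes the antifungal peptide metchnikowin, read 134.1, 202.8 and 93.2 in Relish larvae and 1309.1, 4195.3 and 994.5 in Dif larvae (log2 difference -3.08, SE 0.58, adjusted p = 0.0116). The lowest Dif array lay well above the highest Relish array. Relative to wild type with E. coli, Mtk stood at -4.49 in Relish and -1.41 in Dif larvae on the log2 scale. Relative to wild type with PBS it stood at -1.77 in Relish and 1.31 in Dif larvae. The call of Mtk was lost without Relish replicate 1 (adjusted p = 0.051) or Dif replicate 2 (0.0611). DptB, a diptericin, read 692.0, 579.3 and 616.9 in Relish larvae and 1139.1, 4657.9 and 2649.2 in Dif larvae. The arrays did not overlap, yet the Dif arrays varied widely and the log2 difference of -1.82 (SE 0.45) missed the threshold (adjusted p = 0.0633). The differences of the defensin Def (-0.996), the attacin AttD (-0.90), the drosomycin Drs (-0.87) and the cecropin CecB (-0.60) had adjusted p-values between 0.373 and 0.681. Both mutants stood below wild type with E. coli for DptB, at -4.31 in Relish and -2.48 in Dif larvae, and for CecB, at -4.02 in Relish and -3.42 in Dif larvae; these log2 values share the wild type arrays.

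**Figure D2:**
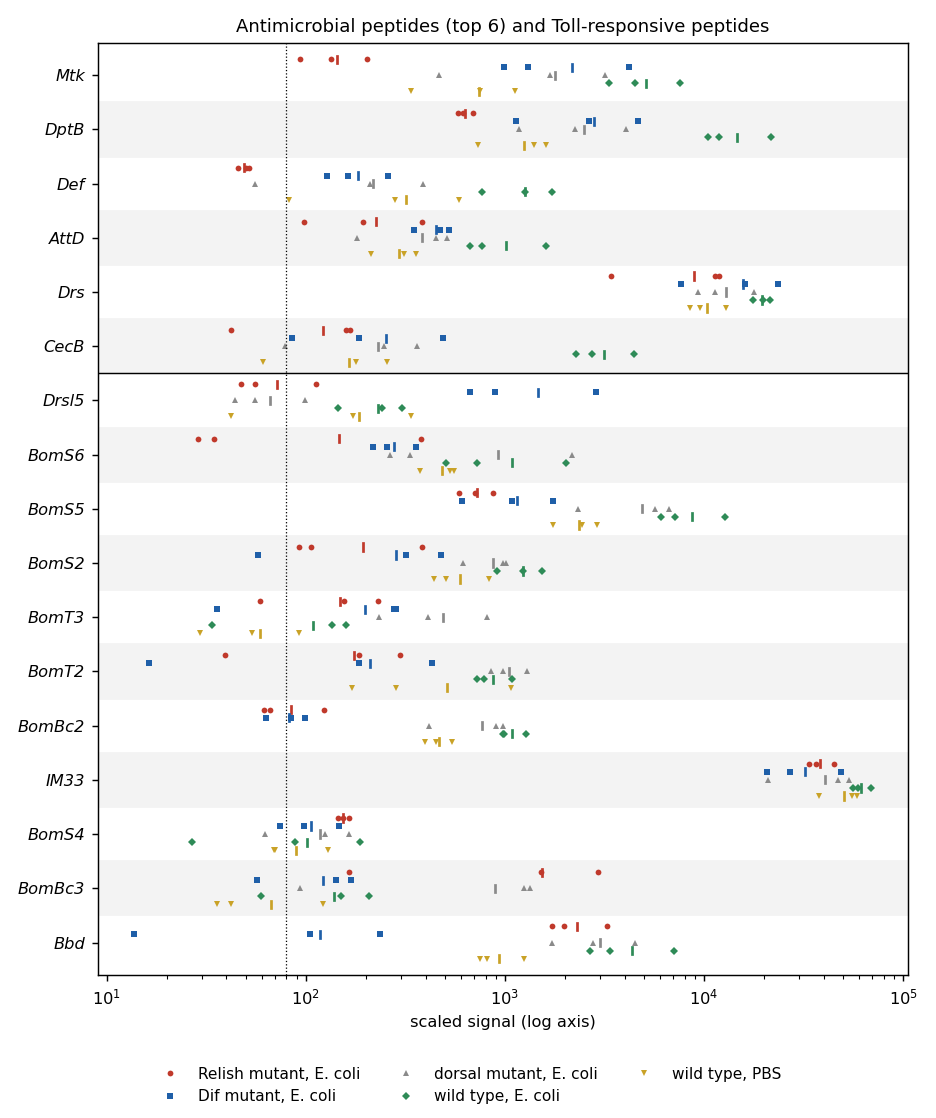
Scaled signal (log axis) of the antimicrobial peptide genes (upper block) and the Toll-responsive secreted peptide genes (lower block) in all 5 groups. Points are single arrays, short bars are arithmetic means of 3 arrays, and the dotted line marks the added constant of 80. Relish points lie left of Dif points for Mtk, DptB, Def and Drsl5, and right of them for Bbd.

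Among the Toll-responsive secreted peptides, 11 of 20 listed genes were tested, 1 was higher and 1 lower in Relish larvae, and the median log2 difference was -0.043. Bbd, or Bombardier, a secreted protein that works together with the Bomanins, read 1717.4, 1984.0 and 3246.5 in Relish larvae and 237.0, 13.8 and 105.1 in Dif larvae. Dif larvae were the low group. Bbd stood at -0.82 in Relish and at -4.53 in Dif larvae relative to wild type with E. coli on the log2 scale. Relative to wild type with PBS it stood at 1.22 in Relish and at -2.5 in Dif larvae. The contrasts of each pair share the wild type arrays. Between the mutants the log2 difference of Bbd was 3.71 (SE 0.44, adjusted p = 0.000171). Drsl5, a relative of drosomycin, went the other way, with 47.5, 113.0 and 55.8 in Relish larvae and 667.6, 889.0 and 2861.9 in Dif larvae (log2 difference -3.11, SE 0.50, adjusted p = 0.00337). For Drsl5 the Dif stock was above wild type with E. coli, by 2.08 on the log2 scale, while the Relish stock stood at -1.02. Relative to wild type with PBS, the Dif stock stood at 2.46 and the Relish stock at -0.65.

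None of the Bomanin genes passed the test. BomS5 read 591.3, 708.3 and 871.3 in Relish larvae and 1740.7, 1091.8 and 608.9 in Dif larvae (log2 difference -0.52, SE 0.39, adjusted p = 0.639), overlapping, and it stood at -3.39 in Relish and -2.87 in Dif larvae relative to wild type with E. coli. BomBc2 differed by 0.00 (SE 0.33, adjusted p = 0.999) between the mutants, and stood at -2.84 in each of them relative to the same wild type arrays. BomBc3 varied most among the Bomanins, with 1512.3, 165.1 and 2929.3 in Relish larvae and 56.8, 168.9 and 142.5 in Dif larvae (log2 difference 2.43, SE 0.79, adjusted p = 0.161). Relish replicate 2 lay among the Dif arrays for that gene.

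Among 9 tested recognition proteins, which bind peptidoglycan or glucan, none passed the test and the median log2 difference was -0.096. The amidase gene PGRP-SB1 read 40.1, 88.3 and 94.6 in Relish larvae and 172.6, 4237.2 and 392.6 in Dif larvae, and Dif replicate 2 carried most of that gap (log2 difference -2.40, SE 0.74, adjusted p = 0.132). PGRP-SC2, another amidase, lay the other way at 31879.0, 21362.7 and 22342.3 in Relish larvae and 15964.6, 6119.0 and 3632.3 in Dif larvae, without overlap (log2 difference 1.79, SE 0.46, adjusted p = 0.0719). None of 16 Imd pathway genes passed the test (median 0.006), the largest difference being that of the scaffold POSH at 0.99 (adjusted p = 0.292), and none of 14 Toll pathway genes did (median -0.052), with the ligand gene spz at 0.59 (adjusted p = 0.414).

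Both prophenoloxidase genes of crystal cells, the blood cells that start melanization, were higher in Relish larvae. PPO1 read 6415.3, 8055.2 and 8482.7 in Relish larvae and 2868.2, 3669.2 and 2249.2 in Dif larvae (log2 difference 1.38, SE 0.24, adjusted p = 0.00726). PPO2 read 17218.3, 19892.7 and 20553.1 in Relish larvae and 5631.4, 7043.8 and 7392.9 in Dif larvae (log2 difference 1.52, SE 0.30, adjusted p = 0.0165). The Relish arrays were tight and far from the Dif arrays for both, and they were the only called members of the 10 tested melanization genes, whose median was 0.046. Another probe set of PPO2 gave -0.40, and the PPO2 call was lost when any of 4 single arrays was left out, with adjusted p up to 0.0632. The summed signal of the 3 crystal cell markers, which include PPO1 and PPO2, ranged from 23811 to 29160 in Relish larvae and from 8717 to 10758 in Dif larvae. In whole larvae, more cells of a type and more RNA per cell cannot be told apart. The third marker, the transcription factor lz, was not called, and the summed signals of the 7 measured hemocyte markers overlapped, at 12622 to 21393 in Relish and 12368 to 19281 in Dif larvae.

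Of 17 tested genes for wounding, JNK signalling and tanning, speck alone was called. It encodes an N-acetyltransferase that inactivates dopamine and other amines, and it read 895.7, 1366.9 and 1056.0 in Relish larvae and 154.1, 163.9 and 132.0 in Dif larvae (log2 difference 2.35, SE 0.31, adjusted p = 0.000565). All Dif arrays of speck were low, at -2.81 on the log2 scale relative to wild type with E. coli against -0.46 for the Relish stock. The enzymes that make dopamine, ple and Ddc, differed by -1.14 and -1.11 without passing the test (adjusted p = 0.463 and 0.565).

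Heat shock protein genes, whose products refold or hold damaged proteins, had lower fitted levels in Relish than in Dif larvae at 12 of 13 tested genes, with a median log2 difference of -1.156, beside -0.024 over all 9190 genes, of which 51.9% were below 0. Of the 13, 2 passed the test, both lower. Hsp26, a small heat shock protein, read 862.5, 237.1 and 555.2 in Relish larvae and 26643.8, 16333.1 and 83792.2 in Dif larvae, a 76.6-fold difference of means (log2 difference -5.85, SE 0.62, adjusted p = 4.65e-05). Wild type larvae with E. coli averaged 1498 ± 405 for Hsp26 and those with PBS 1022 ± 41.8 (SD, n = 3 each), so the Dif stock was the high group. Hsc70-3, the chaperone BiP of the endoplasmic reticulum, read 3882.0, 4971.8 and 4391.5 in Relish larvae and 8521.3, 9214.1 and 12301.8 in Dif larvae (log2 difference -1.16, SE 0.24, adjusted p = 0.0262). The probe set of Hsc70-3 carries the suffix f_at, and members of a gene family can share probe sequence. Its signal may therefore include related genes, which was not tested.

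**Figure D3:**
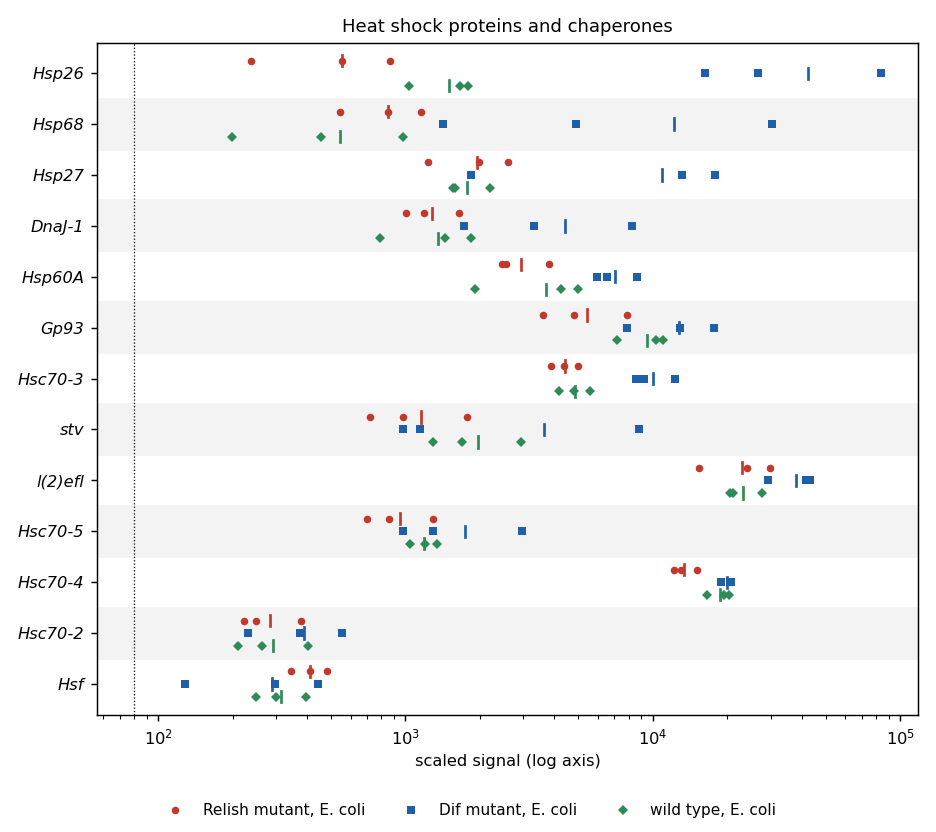
Scaled signal (log axis) of the 13 tested heat shock protein genes in Relish mutant, Dif mutant and wild type E. coli larvae. Points are single arrays, short bars are arithmetic means of 3 arrays. Dif replicate 3 holds the highest of the Relish and Dif signals of Hsp26, Hsp68, Hsp27 and stv, and the Relish and Dif arrays of Hsp26 are far apart.

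Signals of Hsp68 and Hsp27 varied widely between the Dif arrays, as those of Hsp26 did. Hsp68 read 1150.4, 545.7 and 849.7 in Relish larvae and 1413.1, 4878.3 and 30283.3 in Dif larvae (log2 difference -2.77, SE 0.85, adjusted p = 0.133). Hsp27 read 1977.6, 1237.9 and 2603.0 in Relish larvae and 13146.1, 1833.6 and 17790.8 in Dif larvae, with Dif replicate 2 inside the Relish range (log2 difference -1.99, SE 0.58, adjusted p = 0.112). The mitochondrial chaperonin Hsp60A (-1.25, adjusted p = 0.0719) and the BiP partner Gp93 (-1.22, adjusted p = 0.067) came near the threshold, and Hsf, the transcription factor of the heat shock response, was the one gene above 0 (0.50, adjusted p = 0.584). Outside the list, the Hsp70 and Hsp90 co-chaperone gene Stip1 was called at -1.14 (SE 0.23, adjusted p = 0.0181). Stip1 was chosen after its value was seen. The list median was -0.951 without Dif replicate 3. Hsp26 was called with every single array left out, at a log2 difference of -5.19 without Dif replicate 3, the brightest array, whereas the calls of Hsc70-3 and Stip1 were lost with 5 and 4 of the 6 arrays.

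Genes of detoxifying enzymes differed in both directions. Among 72 tested cytochrome P450 genes, 3 were higher and 1 lower in Relish larvae (median 0.046). Cyp6a14 read 2202.9, 2048.9 and 3181.8 in Relish larvae and 69.2, 370.3 and 115.8 in Dif larvae (log2 difference 3.41, SE 0.55, adjusted p = 0.00335), and Cyp6a17 (2.52) and Cyp4e3 (2.30) were higher too. Cyp9b2 read 5895.1, 5515.0 and 4554.9 in Relish larvae and 24942.8, 22987.1 and 25715.4 in Dif larvae (log2 difference -2.20, SE 0.23, adjusted p = 4.35e-05), and its other tested probe set was also called, at -1.51. Wild type with E. coli averaged 3723 ± 1272 for Cyp6a14 and 7325 ± 1600 for Cyp9b2 (SD, n = 3 each), near the Relish stock in both cases. With PBS, wild type averaged 2731 ± 947 for Cyp6a14, again near the Relish stock. For Cyp9b2 the PBS mean was 12758.5 ± 1340.4, between the 2 stocks (SD, n = 3 each).

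Of 31 tested glutathione S-transferase genes, 1 was higher and 2 were lower (median -0.304). GstE1 read 12415.0, 9958.2 and 5896.9 in Relish larvae and 2034.3, 991.3 and 1213.4 in Dif larvae (log2 difference 2.67, SE 0.32, adjusted p = 0.000173). Here the Relish stock was the high group, since wild type with E. coli averaged 1210 ± 380 (SD, n = 3). GstD5 read 414.2, 31.6 and 152.1 in Relish larvae and 716.2, 1761.8 and 2495.8 in Dif larvae (log2 difference -2.73, SE 0.52, adjusted p = 0.0119), against 69.4 ± 17.9 in wild type with E. coli, and GstO3 was lower by a log2 difference of -0.99. Among 26 tested UDP-glycosyltransferases Ugt37C2 alone was called, at 49.0, 65.1 and 31.0 in Relish larvae and 375.5, 517.1 and 600.1 in Dif larvae (log2 difference -2.16, SE 0.34, adjusted p = 0.00292). Of the 12 alkaline phosphatases, Alp7 and Alp8 were lower and Alp10 was higher (1.31, adjusted p = 0.0394). The calls of GstD5 and Cyp4e3 were each lost with 3 of the 6 single arrays left out, and those of GstO3 and Alp10 with 5. Members of these gene families can share probe sequence, so the value of a single member is uncertain.

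Digestive genes of the midgut differed in both directions. Of 29 tested digestive protease genes, 3 were higher and 1 lower, with a median of 0.351. The serine protease yip7 read 113455.3, 132326.9 and 117624.1 in Relish larvae and 52443.6, 53400.7 and 57188.0 in Dif larvae (log2 difference 1.15, SE 0.20, adjusted p = 0.0054). Jon25Bi (0.88) and the trypsin iotaTry (1.05) were higher, and Jon66Cii (-1.60) was lower. LysP, a lysozyme, was the one called gene of 20 lysozymes and carbohydrases, at 1760.7, 1034.4 and 2188.2 in Relish larvae and 95.0, 303.0 and 193.2 in Dif larvae (log2 difference 2.66, SE 0.39, adjusted p = 0.0015). The calls of Jon25Bi and iotaTry were lost whichever array was left out, and that of Jon66Cii with 5 of 6, while those of yip7 and LysP were kept throughout. Amyrel, an amylase-related gene outside the list and chosen after its value was seen, was lower (-1.50, adjusted p = 0.0495), and its call was also lost with 5 of 6.

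The summed signal of the 6 midgut markers ranged from 426227 to 541175 in Relish larvae and from 352662 to 382197 in Dif larvae, without overlap, and none of the 6 was called. The part of this difference in the digestive genes was not tested. Outside the lists, and chosen after their values were seen, the lipase genes CG6295 (1.51), CG6283 (1.92) and CG6277 (1.86) were higher, with calls lost when 5, 2 and 5 of the 6 single arrays were left out. Muc68Ca, a mucin, read 5259.0, 6326.9 and 4232.5 in Relish larvae and 1785.3, 1549.5 and 1628.5 in Dif larvae (log2 difference 1.61, SE 0.23, adjusted p = 0.00108). Of the peritrophic matrix genes, which encode the lining of the gut lumen, Peritrophin-15b was higher (1.01, adjusted p = 0.0301) and Peritrophin-A lower (-1.40, adjusted p = 0.0225), with calls lost for 5 and 4 of the 6 single arrays.

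**Figure D4:**
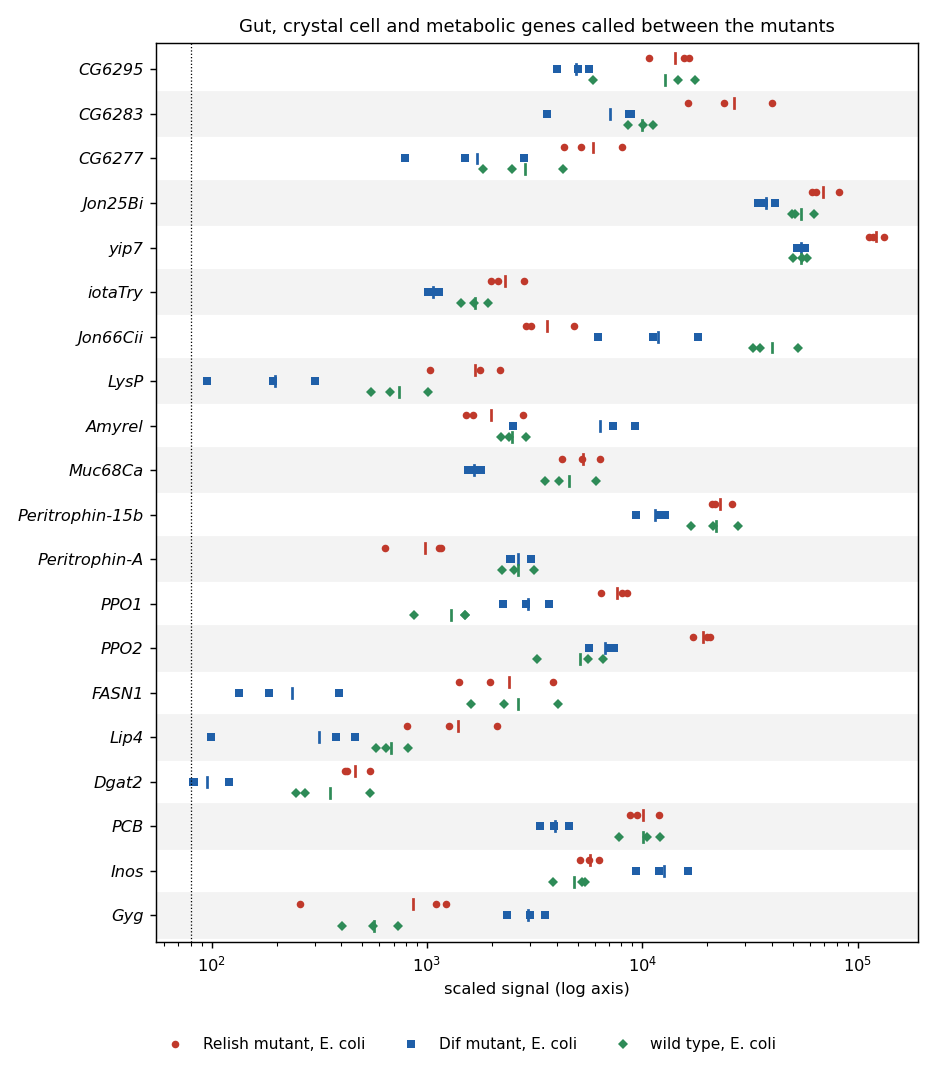
Scaled signal (log axis) of 20 called genes of digestion, gut lining, melanization, and lipid and sugar metabolism, picked after their values were seen. The groups shown are Relish mutant, Dif mutant and wild type E. coli larvae. Points are single arrays and short bars are arithmetic means of 3 arrays. The Relish and Dif arrays overlap for Amyrel, and for the other genes shown they do not.

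Of 17 tested lipid genes, whose median was 0.23, FASN1 and Lip4 were called, both higher in Relish larvae. FASN1, the fatty acid synthase, read 1960.8, 3843.4 and 1413.2 in Relish larvae and 133.9, 389.3 and 183.9 in Dif larvae, a 10.2-fold difference of means (log2 difference 2.94, SE 0.44, adjusted p = 0.0016). The wild type means were 2647 ± 1269 with E. coli and 2003 ± 567 with PBS (SD, n = 3 each), so the Dif stock alone was low. Lip4 encodes a lipase (1.95, adjusted p = 0.0183). Among called genes outside the lists, and chosen after their values were seen, PCB, pyruvate carboxylase, was higher at 8807.7, 9409.5 and 12008.2 in Relish larvae against 3347.6, 3878.1 and 4540.2 in Dif larvae (log2 difference 1.34, SE 0.22, adjusted p = 0.00338). Dgat2, which makes triglyceride, was higher (1.63, adjusted p = 0.018).

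Lower in Relish larvae were Gyg, the glycogenin that primes glycogen (-1.90, adjusted p = 0.0321), and Inos, the inositol phosphate synthase (-1.10, adjusted p = 0.0183). The calls of Lip4 and Gyg were lost with 3 of the 6 single arrays left out, that of Inos with 4 and that of Dgat2 with 5, and those of FASN1 and PCB were kept with all.

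**Figure D5:**
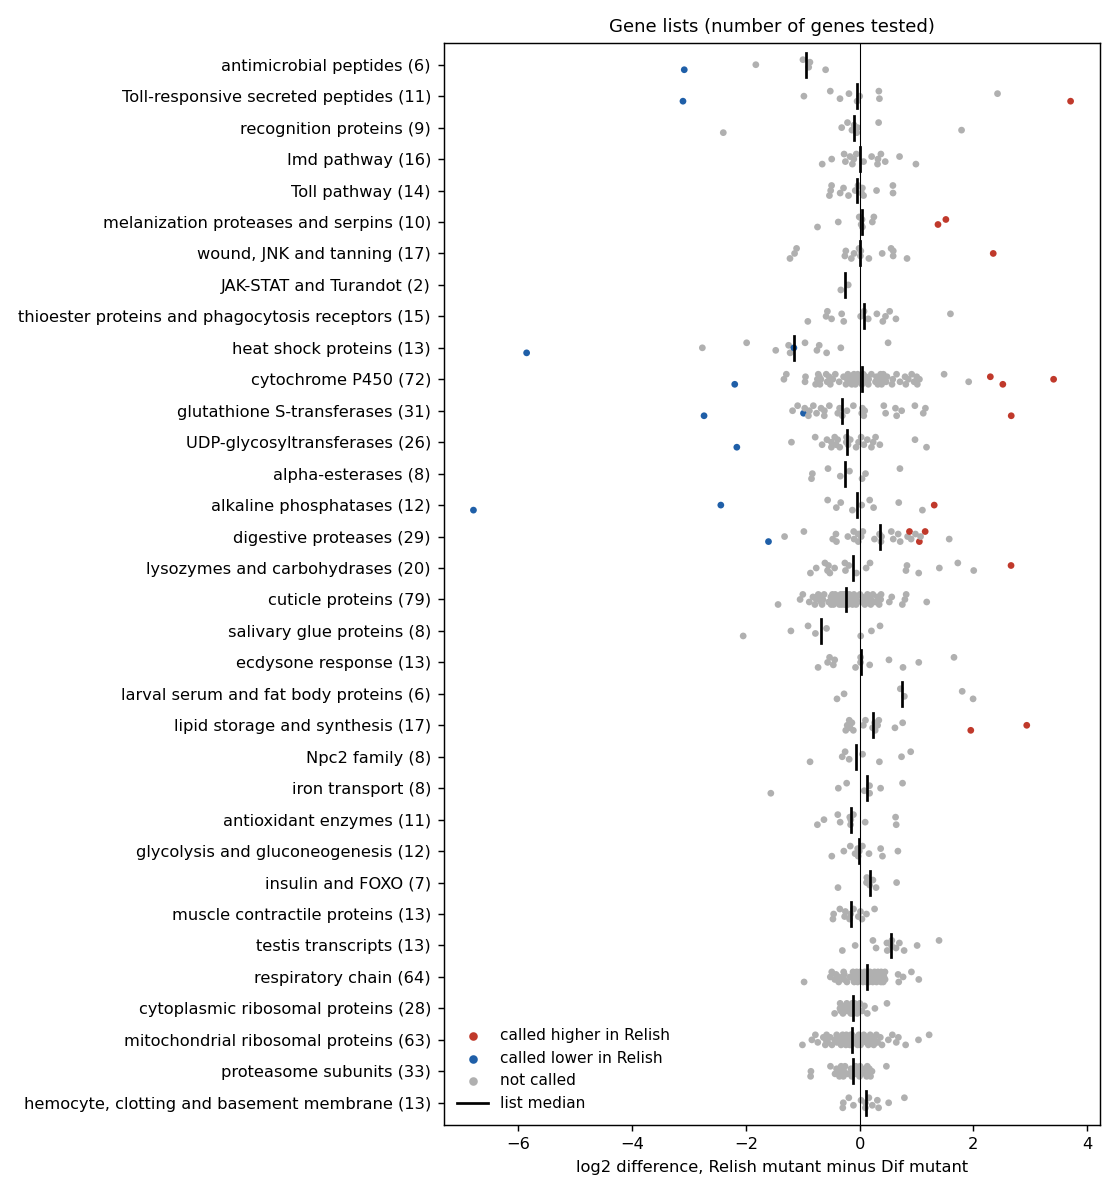
Log2 difference, Relish mutant minus Dif mutant, of every tested gene in 34 lists. Points are genes, coloured where the test was passed, and vertical bars are list medians. Heat shock proteins and antimicrobial peptides have medians of -1.156 and -0.946, and most lists lie near 0.

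Lists without a called gene covered much of the basic machinery. None of 64 respiratory chain, 28 cytoplasmic ribosomal, 63 mitochondrial ribosomal or 33 proteasome genes passed the test, with medians of 0.134, -0.121, -0.142 and -0.114. Respiratory chain genes were above 0 at 42 of 64. Below 0 were 22 of 28 cytoplasmic ribosomal, 38 of 63 mitochondrial ribosomal and 21 of 33 proteasome genes, beside 51.9% of all genes. In the same order, the stocks did not overlap at 5, 12, 7 and 2 genes, beside 16.5% of all tested probe sets. Of 79 tested cuticle protein genes none was called, 57 were below 0, beside 51.9% of all genes, and the median was -0.247. Cpr78Cc came nearest, at -1.43 (adjusted p = 0.0506). Among 13 genes of the ecdysone response, none was called and the median was 0.017. The nuclear receptor gene ftz-f1 read 202.5, 283.6 and 151.9 in Relish larvae and 8.8, 7.8 and 16.8 in Dif larvae, without overlap (log2 difference 1.66, SE 0.40, adjusted p = 0.0549). In the thioester protein and phagocytosis list, of 15 tested genes, the scavenger receptor gene Sr-CIV stood at 1.598 (adjusted p = 0.182). The iron list of 8 reached -1.56 at Mvl, an iron transporter (adjusted p = 0.191), and 13 hemocyte and clotting genes reached 0.79 at the clotting factor gene fon (adjusted p = 0.178).

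Other lists held single large values that did not pass the test. For testis transcripts, 11 of 13 were above 0 with a median of 0.561, whereas 51.9% of all genes were below 0. The testis gene ocn stood at 1.397 (adjusted p = 0.158). The summed male germline markers overlapped, at 5925 to 8758 in Relish and 3978 to 6001 in Dif larvae. The summed yolk protein markers did not, at 1884 to 3531 in Relish and 663.1 to 1089 in Dif larvae, and none of the 3 was called. The labels do not give the sex of the larvae, and its part in these values was not tested.

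Salivary glue genes set single arrays apart within each stock. The summed glue markers read 235366, 2351 and 387409 in Relish larvae and 358306, 41824 and 144584 in Dif larvae. Replicate 2 was the lowest of each group, and the groups overlapped. None of 8 glue genes was called, and their median of -0.679 was 1.19 without Relish replicate 2. The fat body protein gene Fbp1, known to answer to ecdysone in late larvae, read 54651.9, 1559.4 and 91089.2 in Relish larvae and 48996.5, 350.7 and 6023.2 in Dif larvae (adjusted p = 0.67). The larval serum and fat body list had a median of 0.752, which was 0.304 without Dif replicate 2. Summed muscle markers overlapped at 212974 to 264094 in Relish and 215990 to 259203 in Dif larvae, and no marker of any list was below the constant of 80 on all 6 arrays.

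Called genes lay on every arm except chromosome 4, with the highest share on 2R, and the difference between arms was not tested. On arm 2R, 39 of 1859 tested genes were called (2.1%), against 1.19% on 2L, 1.13% on 3L, 0.956% on 3R, where Rel lies, and 0.934% on X, with none of 43 on chromosome 4, beside 1.25% of all genes. Pairs of called genes next to each other among the tested genes numbered 4: CG2065 with Rdh1, Naa35 with speck, CG6283 with CG6277, and CG15369 with Gr8a. The members of a pair moved the same way in Naa35 with speck and CG6283 with CG6277, both higher in Relish larvae, and opposite ways in the other pairs.

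The called probe sets were also placed against wild type larvae and the dorsal mutant. Among the probe sets higher in Relish than in Dif larvae, the wild type E. coli mean was nearer the Relish mean for 46 of the 75 (61.3%), the wild type PBS mean for 53 (70.7%) and the dorsal mutant mean for 43 (57.3%). For the 56 lower probe sets the wild type E. coli mean was nearer the Relish mean for 27 (48.2%), the wild type PBS mean for 28 (50.0%) and the dorsal mutant mean for 27 (48.2%). Over all tested probe sets these shares were 53.7% for wild type with E. coli, 54.7% for wild type with PBS and 55.2% for the dorsal mutant. These shares are descriptions without a test. In the separate contrasts with wild type E. coli larvae, which share those 3 arrays, 1.88% of probe sets were called for the Relish mutant and 2.68% for the Dif mutant.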

How the data were processed

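The deposited intensity values are MAS 5.0 signals on a linear scale, made by the authors with global scaling, per the labels. The trimmed mean was between 800.2 and 800.25 on every array, and medians over the 6 compared arrays ran from 284.85 to 322.6. Their number, 3 a group, limits the precision, and p-values reflect pool-to-pool spread only, which may be partly technical. Some arrays share a title number within their group (dorsal 1 and 2, and replicates 2 and 3 of each wild type group), without a statement of shared cultures; they correlated at 0.932 (dorsal), 0.929 (wild type with E. coli) and 0.940 (with PBS), and counted as separate. Of 13966 probe sets that are no controls, 11427 with a signal of at least 160 on at least 3 arrays were tested, on log2(signal + 80), which understates changes of dim genes. The model, with 1 mean for each of the 5 groups and 10 residual degrees of freedom, used lmFit and eBayes with a trend (limma 3.58.1, R 4.3.3) on 15 arrays, and the contrast was Relish minus Dif. The test was two-sided, with Benjamini-Hochberg adjustment over all tested probe sets, a call being an adjusted p under 0.05. Every adjusted p comes from limma, and the script was tested on simulated data.

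Gene symbols came from the platform annotation: 12443 probe sets had 1 symbol, 327 several and 1196 none. Of those with 1 symbol, 12394 were found in RefSeq, and no symbol changed. Gene lists used the probe set of highest mean signal. Named were Rel, Dif and dl, the 15 largest called rises and falls without overlap, the called members of 34 lists or else up to 2 of the largest differences, up to 2 unnamed probe sets a direction, and neighbours of Rel and Dif; exceptions are marked, and 1 of the rises is not reported here. The members and lists were chosen with earlier results of these data known. Folds are ratios of mean signals, given only where both means exceed 80. The genome build of the design is not given in the sources used here, and positions are left out. Alternatives were other pseudocounts, filters, samples, normalization and variance models, a replicate block, and leaving out each array.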

Additional observations from a re-analysis of the deposited data

How the results depend on the processing

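No called probe set changed sign under any of the 16 alternatives. For 130 of the 131, however, the Relish and Dif arrays did not overlap. Most alternatives therefore could not turn the sign, such as leaving out arrays or changing the pseudocount, filter or variance model. With the Relish and Dif arrays alone in the fit, 87 probe sets were called, 37 of them lower, and without the variance trend 67, of which 40 were higher and 27 lower; the causes were not tested. Leaving out 1 array gave between 61 and 119 calls, between 35 and 68 higher and between 26 and 51 lower, with 1 array fewer in the fit. Averaging arrays that share a title number, all outside the compared stocks, gave 96 calls, 89 of them among the 131. The other settings gave between 105 and 143. Titles number the replicates, but deviations of same-numbered arrays correlated at 0.018, 0.079 and -0.037, so the numbers were not taken to pair samples. The number was also used as a replicate block, with only the Relish and Dif arrays in the fit. That fit called 125 probe sets, 88 of them among the 131, beside 87 called on the same arrays without the block. Signals near or below the added 80 limit what can be said of dim genes: 6 called probe sets had a Relish mean and 6 a Dif mean below it.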
